A study of Homo sapiens with 18 samples.

Results

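The arrays compared here came from 786-O cells, a clear cell renal cell carcinoma line that lacks a working VHL protein, and asked how the transcriptome differed between cells carrying a stably expressed shRNA against PBRM1 and cells carrying a scrambled control shRNA (SCR). Of the 18 arrays of the experiment, 3 were labelled VHL-/- with PBRM1 shRNA and 3 were labelled VHL-/- with SCR, and these 6 were chosen by their titles. The other groups, of 3 arrays each, held KDM5C shRNA in VHL-/- cells and each of the same 3 constructs in VHL+/+ cells. The VHL+/+ cells were also 786-O, and the paper describes their difference from VHL-/- cells as VHL re-expression. No further treatment was given to any group. In every group replicates 1 and 2 lay on chip 1 and replicate 3 on chip 2. The PBRM1 arrays are described as made with 1 hairpin (shRNA-94), and nothing states that replicates came from separate cultures, so the p-values measure the spread between arrays, which may be technical.

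PBRM1 is the polybromo subunit of PBAF, a form of the SWI/SNF chromatin remodelling complex that also contains ARID2, BRD7 and PHF10, and it is among the genes most often mutated in clear cell renal carcinoma. VHL marks the hypoxia-inducible factors for degradation. In 786-O cells without VHL, HIF2α, encoded by EPAS1, is therefore present at normal oxygen, and it drives targets such as CCND1. SWI/SNF complexes move nucleosomes and can both raise and lower transcription, and for that reason the table was read in both directions and outside the interferon genes as well as within them.

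The values are log2 signals for 13141 genes, quantile-normalised, with a median of 7.65. Arrays of the same group correlated at 0.987 to 0.995 over the genes of the table (genes are no replicates of each other), and the chip term passed for 3130 genes. Each log2 fold change below is PBRM1 shRNA minus SCR from a limma fit of all 18 arrays that includes the chip, with Benjamini-Hochberg adjustment over all 13141 genes. A gene passed at adjusted p under 0.05, and it was called if its fold change was also at least 1.5. The gene lists below and their members were fixed with earlier results of these data known. Shares of a list beside those of all genes are therefore descriptions and no support for a programme. Over all genes 2.79% passed higher and 2.65% passed lower. Replicates are listed in the order 1, 2 and 3, so the last value of each group is the chip 2 array.

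PBRM1 mRNA, the target, did not fall beyond the spread between arrays. The SCR arrays ranged from 7.24 to 7.41 and the arrays labelled PBRM1 shRNA from 7.16 to 7.38, with means of 7.30 ± 0.09 and 7.24 ± 0.12 (SD, n = 3 each). The 95% interval of the log2 difference ran from -0.32 to 0.19, so that a fall in signal by more than 1.24-fold lay outside it (limma adjusted p = 0.864; exact two-sided permutation p = 0.8, where 3 arrays against 3 cannot go below 0.1). Within chip 1 the difference was -0.15, and on chip 2 it was 0.12. By mean signal PBRM1 was brighter than 40.4% of the table's genes, and the signal of its probe was not tested against background. The knock-down was thus not visible in the mRNA signal, and every difference reported here is one between arrays labelled PBRM1 shRNA and arrays labelled SCR.

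The partners of PBRM1 gave no call either. ARID2, which with PBRM1 defines PBAF, had a log2 fold change of 0.12 (adjusted p = 0.549), and BRD7 and PHF10 had -0.02 and 0.04 (adjusted p = 0.974 and 0.932). Of 23 SWI/SNF subunit genes measured, 0 passed higher and 1 passed lower (4.35%, where 2.65% of all genes did). That gene was KIAA0240 (now BICRAL), a subunit of the non-canonical form, lower by 0.29 on the log2 scale (adjusted p = 0.0461). That pass was lost in 14 of 25 alternative analyses. VHL mRNA also did not pass (0.09, adjusted p = 0.698). EPAS1 was 8.80, 9.002 and 9.71 with SCR and 9.79, 9.89 and 9.97 with PBRM1 shRNA. Its arrays did not overlap, but the SCR array of chip 2 lay near the shRNA arrays, and the difference of 0.71 did not pass (adjusted p = 0.0642). It passed in 6 of the 25 alternatives, over which its adjusted p by limma ran from 0.0124 to 0.367.

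**Figure D1:**
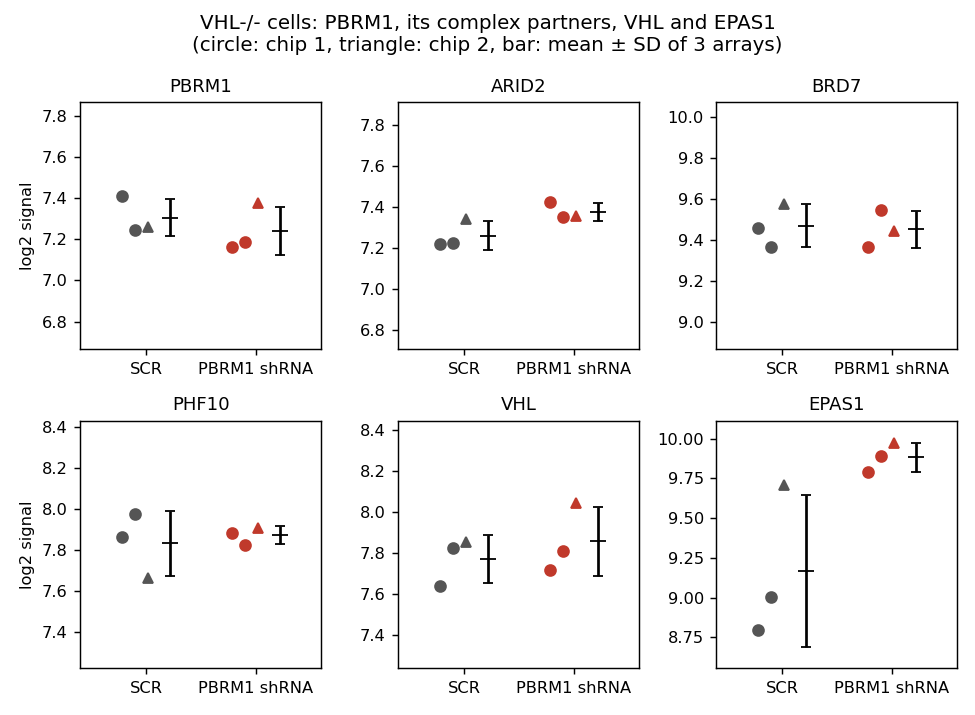
Log2 signal on each of the 6 arrays for PBRM1, 3 genes of its complex, VHL and EPAS1, with circles for chip 1, triangles for chip 2 and bars for the mean ± SD of 3 arrays. The PBRM1 values of the SCR arrays (7.24 to 7.41) and of the PBRM1 shRNA arrays (7.16 to 7.38) overlap, and EPAS1 separates with its lowest shRNA array at 9.79 and its highest SCR array at 9.71.

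Markers of cell identity were read one by one, since levels of different probes cannot be ranked. Of 20 kidney tubule and clear cell carcinoma markers listed, 12 were in the table, with a median signal of 8.01 over all 18 arrays. PAX2, HNF4A, CA9, MME, GGT1, AQP1, LRP2 and SLC34A1 were not in it. Of the 12, PAX8 and CDH6, which mark the tubule lineage, had mean SCR signals of 8.71 and 9.62, while LHX1 had 7.68. LHX1, a transcription factor of the developing kidney, fell by 0.42 on the log2 scale (adjusted p = 0.00115), and it was the only member of that list that passed. Of 7 leukocyte markers measured 0 passed, and all but CD68, which had 8.91, had SCR means below the median of the table, the lowest being NKG7 at 6.68. Since probes differ, these levels are a description only. Of 6 fibroblast and endothelial markers, only LUM passed (-0.73, adjusted p = 0.00131), while COL1A1, COL1A2, COL3A1, PECAM1 and TEK had SCR means between 6.69 and 6.86.

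Between arrays labelled PBRM1 shRNA and SCR, 238 genes were called (1.81% of those tested), 121 higher (0.921%) and 117 lower (0.89%). At adjusted p alone 714 genes passed (5.43%), 366 higher (2.79%) and 348 lower (2.65%), and at a fold change of at least 2 there were 23 higher and 34 lower. The median log2 fold change over all genes was -0.000611, with 49.8% above 0 and 50.2% below. After removal of the chip effect the 3 shRNA arrays lay wholly above or wholly below the 3 SCR arrays for 236 of the 238 called genes and for 24.1% of all genes, a description only, since the call favours such genes. The share called lower depended on the chip term. Without it 76 genes were called lower and 93 higher.

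Genes on the list of interferon-stimulated genes used here were found among the falls alone. Of 107 table rows for such genes, 49 were called lower (0.89% of all genes were) and 0 higher (0.921% of all genes were). The 5 largest falls on that list were those of EPSTI1 (-2.54), MX1 (-2.53), IFI44L (-2.38), IFI27 (-2.07) and IFI6 (-1.58), all products induced by type I interferon. The remaining 189 called genes, 121 higher and 68 lower, lay outside that list, so that 58.1% of the genes called lower and all of those called higher were not on it. The paper counts IL6, IL8, ARPC4, GAS6 and STMN3 among its interferon-responsive genes, and none of these is on this list. The split therefore differs from the paper's, and a gene outside the list may still respond to interferon. Within chip 1 the median log2 fold change was 0.78 for the 121 higher genes and -0.79 for the 68 lower genes. On chip 2 these medians were 0.74 and -0.67, as a description, since the arrays of both chips made the calls.

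**Figure D2:**
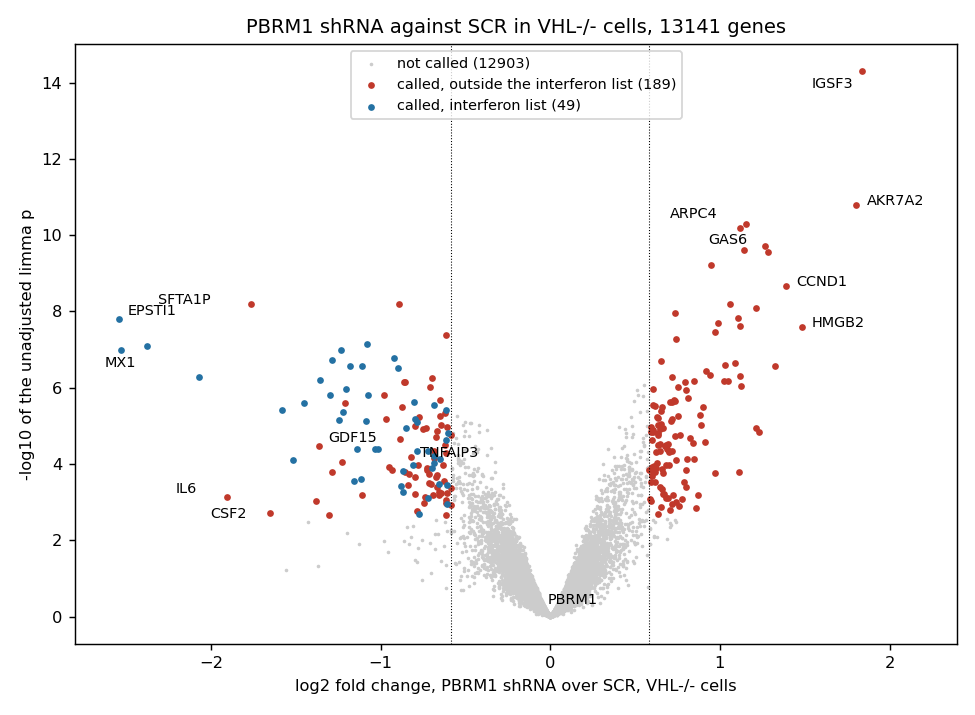
Log2 fold change of PBRM1 shRNA over SCR in VHL-/- cells (horizontal axis) against minus log10 of the unadjusted limma p (vertical axis) for each of 13141 genes, with the 189 called genes outside the interferon list in red, the 49 called genes of that list in blue and dotted lines at a fold change of 1.5. All 121 genes called higher are red, IGSF3 has the smallest p, and PBRM1 lies near the origin.

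IGSF3, an immunoglobulin superfamily membrane protein, rose most. It was 6.96, 6.995 and 7.01 with SCR and 8.86, 8.86 and 8.76 with PBRM1 shRNA, a rise of 1.84 on the log2 scale with a standard error of 0.07 (adjusted p = 6.57e-11). The SCR signals lie near the lower end of the table and the 3 arrays of each group are nearly alike. AKR7A2, an aldo-keto reductase that detoxifies aldehydes, was 9.22, 9.09 and 8.92 with SCR and 11.02, 10.87 and 10.75 with the shRNA (1.81, standard error 0.11, adjusted p = 1.05e-07). AKR7A3, its close relative, rose from 7.62, 7.51 and 7.52 to 8.82, 8.81 and 8.82 (1.27, adjusted p = 5.11e-07). The AKR7A genes resemble each other in sequence, and the probes behind the averaged values were not compared here. The 2 rises may therefore not be independent measurements.

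Of the genes of the G1 phase of the cell cycle 4 rose and the list as a whole was centred near 0. CCND1, which encodes cyclin D1, the activator of CDK4 and CDK6, was 11.18, 11.16 and 11.04 with SCR and 12.68, 12.59 and 12.27 with the shRNA. The groups did not overlap, and the rise was 1.39 with a standard error of 0.12 (adjusted p = 3.16e-06). RB1, the retinoblastoma protein that CDK4 and CDK6 phosphorylate, rose by 0.70 (adjusted p = 0.00325), and the E2F partners E2F2 and TFDP1 rose by 0.58 and 0.32 (adjusted p = 0.00715 and 0.0161). Of 22 G1 cyclins, kinases and inhibitors measured these 4 passed higher (18.2%, where 2.79% of all genes did) and 0 passed lower. The others gave no call: CCNE1 had -0.12, CDK4 -0.09 and CDK6 -0.04, and CDKN1A, an inhibitor, had -0.35 (adjusted p = 0.0628). The list median was 0.03.

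DNA replication and mitosis genes leaned higher as a group. Of 72 such genes 66 had a log2 fold change above 0 (91.7%, against 49.8% of all genes), with a list median of 0.21. Of the list 8 passed higher (11.1%, where 2.79% of all genes did) and 0 lower. HMGB2, a chromatin protein abundant in dividing cells, was 8.83, 8.52 and 8.58 with SCR and 10.02, 10.26 and 10.08 with the shRNA (1.48, standard error 0.15, adjusted p = 1.75e-05). STMN1, which destabilises microtubules, was 7.45, 7.62 and 7.32 against 8.52, 8.45 and 8.60 (1.06, adjusted p = 7.12e-06). In both genes every shRNA array exceeded every SCR array. The other 6 changed by less, and CCNB2, PRC1, AURKA, HMMR, MCM6 and RFC4, which act in mitosis and at the replication fork, rose by 0.37 to 0.58. Averaged over the 72 genes, the SCR arrays had signals from 9.41 to 9.57 and the shRNA arrays from 9.75 to 9.78, without overlap. The count was 3 without SCR replicate 1, 3 without PBRM1 shRNA replicate 3, 4 without the chip term and 22 in a fit of the 6 arrays alone, and the list median stayed between 0.15 and 0.26 over all 25 alternatives. MKI67 and PCNA, the usual markers of dividing cells, did not pass (0.22 and 0.18, adjusted p = 0.28 and 0.542).

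Rises in the actin group belonged to single members and not to whole complexes. ARPC4, a subunit of the Arp2/3 complex that nucleates branched actin, was 8.42, 8.37 and 8.28 with SCR and 9.50, 9.60 and 9.44 with the shRNA (1.16, standard error 0.08, adjusted p = 2.09e-07). Of the other 8 Arp2/3 subunit genes 0 passed, with -0.14 for ARPC2, -0.07 for ARPC3, 0.17 for ACTR2 and -0.34 for ACTR3. TPM1, a tropomyosin, IQGAP1, a scaffold of the cortical actin network, and LCP1, an actin bundler, rose by 1.12, 1.11 and 0.91 (adjusted p = 1.75e-05, 1.26e-05 and 0.0023). FSCN1 passed with 0.29. FMNL2, a formin, fell by 0.54 (adjusted p = 0.00386). Of 53 genes of actin nucleation and actomyosin 5 passed higher (9.43%, where 2.79% of all genes did) and 1 passed lower. The list median was 0.03.

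GAS6, the ligand of the TAM receptor kinases AXL, TYRO3 and MERTK, was 7.52, 7.43 and 7.22 with SCR and 8.65, 8.73 and 8.64 with the shRNA (1.28, standard error 0.09, adjusted p = 5.11e-07). Its receptors gave no call, with log2 fold changes of -0.10, -0.02 and -0.07. The angiogenic ligand EFNA1 fell by 0.69 (adjusted p = 0.019). GAS6 and EFNA1 were the 2 of 38 receptor tyrosine kinases and ligands that passed, 1 each way (2.63%, where 2.79% of all genes passed higher and 2.65% lower). STMN3, a neuronal relative of STMN1, was 7.60, 7.62 and 7.52 against 8.93, 8.59 and 8.85 (1.21, adjusted p = 0.00125).

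The remaining genes among the 20 largest rises had unrelated functions. TMEM109 and TMEM158, both membrane proteins, rose by 1.32 and 1.23, and TMEM158 lost its call without the chip term. SEPHS1, a selenophosphate synthetase paralogue, rose by 1.21, KTELC1 (now POGLUT1), which glucosylates Notch, by 1.14, and C16ORF75 (now RMI2), a partner of the BLM helicase, by 1.12. C2CD2 and the antisense transcript C18ORF56 (now TYMSOS) rose by 1.12 and 1.11, the latter not without the chip term. RNY4, a small Y RNA transcribed by RNA polymerase III, rose from 6.99, 7.07 and 7.04 to 8.24, 7.87 and 8.36 (1.12, adjusted p = 0.00017). RPS23, a protein of the small ribosomal subunit, was 8.67, 8.72 and 8.88 against 9.93, 9.80 and 9.80 (1.09, adjusted p = 9.64e-05), yet of 74 cytosolic ribosomal protein genes only RPL22 passed beside it (0.36, lost in 16 of 25 alternatives). Processed copies of ribosomal protein and Y RNA genes are common, and reads of their probes on such copies were not tested.

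Inflammatory cytokines were among the 20 largest falls outside the interferon list, and IL6 fell most. IL6, the cytokine that signals through STAT3, was 11.95, 11.92 and 10.75 with SCR and 10.28, 10.17 and 8.46 with the shRNA, a difference of -1.91 with a standard error of 0.46 (adjusted p = 0.0203). Both groups were lower on chip 2, and the shRNA array lay below the SCR array on each chip. CSF2, which encodes the growth factor GM-CSF, was 10.34, 10.42 and 9.38 against 8.74, 8.67 and 7.76 (-1.65, standard error 0.45, adjusted p = 0.0384). CCL2, a chemokine that attracts monocytes, was 10.14, 9.99 and 10.21 against 9.17, 9.34 and 7.91 (-1.31, standard error 0.36, adjusted p = 0.0415). IL8 (now CXCL8) was 13.39, 13.30 and 12.57 against 12.33, 12.26 and 9.98, and its log2 fold change of -1.56 did not pass (standard error 0.78, adjusted p = 0.306). Of 25 alternatives, IL6 lost its call in 5, CSF2 in 10 and CCL2 in 11, among them for each of these genes the fits without SCR replicate 1 and without SCR replicate 2 (highest adjusted p by limma 0.0892, 0.145 and 0.162).

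Single genes that act in or upstream of the NF-kB pathway also fell. TNFAIP3, which encodes the ubiquitin-editing inhibitor A20 and is itself an NF-kB target, was 8.13, 8.204 and 8.14 with SCR and 7.47, 7.36 and 7.18 with the shRNA (-0.82, standard error 0.15, adjusted p = 0.00434), and it kept its call in all 25 alternatives. IRAK2, a kinase below the interleukin-1 and Toll-like receptors, fell by 1.11 (adjusted p = 0.0194), and LY96, the MD-2 co-receptor of TLR4 and not a member of the list counted next, by 1.21 (adjusted p = 0.000468). CFLAR and PTGS2 passed with -0.45 and -0.30. Of 39 inflammatory cytokines and NF-kB targets measured 7 passed lower (17.9%, where 2.65% of all genes did) and 0 higher, and the list median was -0.22. Averaged over the 39 genes, the signals were 8.89 to 8.96 with SCR and 8.24 to 8.65 with the shRNA, without overlap. The count fell to 1 without SCR replicate 1 and was 16 in a fit of the 6 arrays alone, and the median stayed between -0.30 and -0.21.

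IL6R, the receptor subunit that binds IL6, is not among the genes analysed here. Of 31 genes of the IL6 receptor family and the JAK and STAT3 pathway 0 passed lower and 1 passed higher, PTPN11, the phosphatase SHP2 (0.61, adjusted p = 0.00134). Beyond them, the cytokine receptor IL7R fell from 9.04, 8.99 and 8.18 to 8.01, 8.11 and 7.41 (-0.89, standard error 0.08, adjusted p = 7.12e-06), with the shRNA array lower on each chip although the chips differed by about as much. Without the chip term its adjusted p was 0.242. CD69, a lymphocyte activation antigen, had 7.33, 7.61 and 7.65 against 6.68, 6.69 and 6.62 (-0.86, adjusted p = 0.000193). The SCR mean of CD69, 7.53, lay just below the table's median of 7.65, and that of IL7R, 8.74, lay above it.

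The promoters of the called groups were searched for 3 short motifs. They are windows of 300 bases around start sites from RefSeq on GRCh38.p14, and 9879 of the table's genes had at least 1. The letters GAAANNGAA, an approximation of the interferon-stimulated response element searched on both strands, stood in 27 of 40 interferon genes called lower (67.5%), in 2 of 47 other genes called lower (4.26%, AKR1B1 and IL6), in 6 of 99 called higher (6.06%) and in 868 of all 9879 (8.79%). The letters GGGANTTTC, an approximation of the NF-kB site on both strands, stood in 4 of the 40 interferon genes (10%), in 3 of the 47 other genes called lower (6.38%), namely GFRA1, IL6 and TNFAIP3, in 1 of 99 called higher (1.01%) and in 152 of all 9879 (1.54%). The letters TTTNNCGC, an approximation of the E2F site on both strands, stood in 15 of 99 called higher (15.2%), in 6 of the 40 interferon genes (15%), in 2 of the 47 other genes called lower (4.26%) and in 1262 of all 9879 (12.8%). A longer form of the first motif, with a further A at its end, stood in 26 of the 40 interferon genes (65%), in 0 of the 47, in 4 of the 99 (4.04%) and in 389 of all 9879 (3.94%), so that the matches in AKR1B1 and IL6 belong to the shorter form only. With a further C at its end the second motif stood in 4 of the 40, 3 of the 47, 1 of the 99 and 78 of all 9879 (0.79%). The motifs and their lengths were chosen with the calls known, genes with several start sites have more letters searched, and a match is a description and not a binding site or a cause.

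The promoters of EPSTI1 and IFI44L, among the 5 largest interferon falls, are printed with GAAANNGAA or its reverse complement in capitals, and those of IL6 and TNFAIP3, from outside that list, with GGGANTTTC or its reverse complement in capitals. Each is written 5′ to 3′ on the strand of its gene, on GRCh38.p14.
EPSTI1, chr13:42992192-42992491, minus strand: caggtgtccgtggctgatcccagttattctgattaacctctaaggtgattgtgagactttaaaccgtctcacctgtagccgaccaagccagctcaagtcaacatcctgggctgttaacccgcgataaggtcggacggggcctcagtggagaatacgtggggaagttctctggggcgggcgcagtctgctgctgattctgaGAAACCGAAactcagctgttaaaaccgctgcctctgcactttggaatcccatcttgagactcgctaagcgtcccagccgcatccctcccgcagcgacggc
IFI44L, chr1:78620198-78620497, plus strand: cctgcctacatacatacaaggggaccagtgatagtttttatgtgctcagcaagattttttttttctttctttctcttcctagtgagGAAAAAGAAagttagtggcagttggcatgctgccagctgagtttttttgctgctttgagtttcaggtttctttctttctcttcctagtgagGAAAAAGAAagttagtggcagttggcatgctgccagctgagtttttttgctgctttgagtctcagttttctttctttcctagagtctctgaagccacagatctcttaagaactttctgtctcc
IL6, chr7:22726950-22727249, plus strand: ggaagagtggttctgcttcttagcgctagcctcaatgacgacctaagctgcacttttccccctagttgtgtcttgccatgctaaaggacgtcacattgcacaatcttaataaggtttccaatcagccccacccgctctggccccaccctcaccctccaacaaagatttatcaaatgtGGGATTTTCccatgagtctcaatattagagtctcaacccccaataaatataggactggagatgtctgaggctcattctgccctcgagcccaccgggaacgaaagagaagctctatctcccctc
TNFAIP3, chr6:137867009-137867308, plus strand: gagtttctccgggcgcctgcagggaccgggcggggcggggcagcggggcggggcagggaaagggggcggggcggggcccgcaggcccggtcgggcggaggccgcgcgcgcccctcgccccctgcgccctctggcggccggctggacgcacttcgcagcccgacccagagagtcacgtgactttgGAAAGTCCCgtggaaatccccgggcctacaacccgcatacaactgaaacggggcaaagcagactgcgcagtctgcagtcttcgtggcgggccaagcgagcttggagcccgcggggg

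Proteases and adhesion receptors also leaned lower. PLAU, the urokinase plasminogen activator, was 10.54, 10.50 and 10.50 with SCR and 8.90, 8.95 and 9.54 with the shRNA (-1.38, standard error 0.34, adjusted p = 0.0243). The groups did not overlap, but the call was lost in 7 of 25 alternatives, among them each fit without 1 of the 3 SCR arrays. ITGA5, the fibronectin receptor subunit α5, fell by 0.63 (adjusted p = 0.0107), and ADAM15 passed with -0.35. Of 44 integrins and matrix proteases 39 were below 0 (88.6%, against 50.2% of all genes). Of the list 4 passed lower (9.09%, where 2.65% of all genes did) and 0 higher. The list median was -0.12, with a range of -0.17 to -0.11 over the alternatives. The extracellular matrix list of 56 genes was even, with 3 passed each way (5.36%, where 2.79% of all genes passed higher and 2.65% lower). COL6A1, COL6A3 and the glycoprotein TNC rose by 0.42, 0.67 and 0.76. COL5A2, LUM and CYR61 (now CCN1) fell by 0.51, 0.73 and 0.48, and CYR61 lost its pass in 12 of 25 alternatives.

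Stress-responsive genes were also among the falls. GDF15, a stress cytokine and p53 target, was 9.29, 9.17 and 9.60 with SCR and 7.86, 7.64 and 8.48 with the shRNA (-1.36, standard error 0.24, adjusted p = 0.00262). TXNIP, the glucose-responsive inhibitor of thioredoxin, was 9.89, 9.88 and 10.91 against 8.95, 8.91 and 9.15 (-1.23, adjusted p = 0.00525). Both lost their call without the chip term. Of 31 p53 targets 3 passed lower (9.68%, where 2.65% of all genes did), namely GDF15, TNFRSF10A (-0.46) and KIAA0247 (now SUSD6, -0.39). TRIAP1 passed higher (0.49). In this list 25 lay below 0 (80.6%, against 50.2% of all genes), and the median was -0.09. The number passed lower ran from 0 to 5 over the 25 alternatives. MDM2 had -0.05 (adjusted p = 0.778). Of 31 ATF4 and amino acid synthesis genes PSPH, of serine synthesis, and SLC38A2, an amino acid transporter, passed lower by 0.80 and 0.35 (6.45%). SLC38A2 lost its pass in 14 of 25 alternatives, and 0 of the list passed lower without SCR replicate 2, without PBRM1 shRNA replicate 1 or without PBRM1 shRNA replicate 2. Of 41 heat shock genes the small heat shock proteins HSPB8 and CRYAB fell by 0.88 and 0.71 (adjusted p = 0.000558 and 0.000246). BAG2 passed with -0.37, and 0 passed higher. The 3 lower are 7.32% of that list, where 2.65% of all genes passed lower.

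Among lysosomal genes a minority passed, all of them lower. Of 50 genes of the lysosome and autophagy, 8 passed lower (16%, where 2.65% of all genes did) and 0 higher. In this list 37 lay below 0 (74%, against 50.2% of all genes), and the median was -0.13. GRN, the progranulin precursor, was 9.37, 9.46 and 9.81 with SCR and 8.66, 8.72 and 8.94 with the shRNA (-0.77, standard error 0.12, adjusted p = 0.000856) and was the only one called. ATP6V1A, of the proton pump, SGSH, a sulphatase, and PSAP, the saposin precursor, passed with -0.45, -0.50 and -0.56, and CTSC, CTSS, NPC2 and TPP1 with -0.33 to -0.42. The count was 2 without the chip term and 3 without SCR replicate 1.

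Members of the list of NRF2 targets and aldo-keto reductases passed in both directions. Of its 39 genes AKR7A2, AKR7A3 and AKR1B10 passed higher, by 1.81, 1.27 and 0.97, and AKR1B1, GSTP1, MGST1 and MGST2 passed lower, by 0.70, 0.69, 0.42 and 0.57. These are 7.69% and 10.3% of the list, where 2.79% of all genes passed higher and 2.65% lower. NQO1, the best known NRF2 target, had 0.12 (adjusted p = 0.691), and the list median was -0.05.

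Other genes among the 20 largest falls outside the interferon list were SFTA1P, a transcribed surfactant-associated pseudogene, at 9.17, 9.32 and 8.24 against 7.16, 7.32 and 6.98 (-1.76, standard error 0.16, adjusted p = 7.12e-06), and C15ORF48 (now COXFA4L3), a mitochondrial protein induced in inflammation (-1.29, adjusted p = 0.0077). C6ORF58, FAM84B (now LRATD2), KIAA1324 (now ELAPOR1), TMEM22 (now SLC35G2), HRASLS3 (now PLAAT3), PDZK1IP1 and HSF2BP fell by 0.85 to 0.98, each with all 3 shRNA arrays below all 3 SCR arrays.

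Other programmes gave few passes, none, or passes that single arrays decided. Of 39 HIF targets measured 2 passed higher (5.13%, where 2.79% of all genes did), CCND1 and C7ORF68 (now HILPDA, a lipid droplet protein, 0.60). Another 1 passed lower (2.56%, where 2.65% of all genes did). ADM, NDRG1 and SLC2A1 had -0.32, 0.02 and 0.11 and did not pass. Of 20 glycolytic enzymes, 34 sterol and fatty acid synthesis genes and 13 metallothioneins and metal handling genes 0 passed, the smallest adjusted p in each being that of PFKFB3 (0.0839), INSIG2 (0.0501) and MT2A (0.199). CYCS was the 1 of 75 respiratory chain genes that passed (0.38), and PSMG3 the 1 of 38 proteasome genes (0.39, lost in 12 of 25 alternatives). AARS, the alanyl-tRNA synthetase, rose by 0.72 (adjusted p = 0.000462). Of 24 endoplasmic reticulum chaperones and regulators EDEM1, CANX, PDIA4 and FKBP14 passed higher by 0.34 to 0.53, and the sensor ATF6 passed lower by 0.40. The 4 higher are 16.7% of that list, where 2.79% of all genes passed higher. However, 0 of the list passed higher without SCR replicate 2 or without PBRM1 shRNA replicate 2.

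Chromatin genes other than HMGB2 moved little. Of 41 histone lysine methyltransferases and demethylases EZH2, the catalytic subunit of PRC2, and JARID2, its cofactor, passed higher by 0.30 and 0.38. UTX (now KDM6A) and SETDB2 passed lower by 0.35 and 0.36, and all were under a fold change of 1.5. The 2 each way are 4.88% of the list, where 2.79% of all genes passed higher and 2.65% lower. Of 25 alternatives, EZH2 lost its pass in 8, JARID2 in 7, UTX in 7 and SETDB2 in 12. EZH2, JARID2 and SETDB2 lost it when any 1 of the 6 arrays compared was left out. Of 22 core histone genes HIST1H2BK passed lower (-0.46), and of 13 high mobility group and linker histone genes only HMGB2 passed. INHBB passed higher among 31 TGF-beta and YAP targets (0.57) and 2 passed lower, ZFP36 and DUSP10 passed with 0.31 and -0.41 among 30 immediate early genes (lost in 15 and 14 of 25 alternatives), and KRT19 was the 1 of 22 epithelial and mesenchymal markers that passed (0.69, adjusted p = 0.0213). VIM and CDH2 had 0.15 and -0.07 and did not pass.

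**Figure D3:**
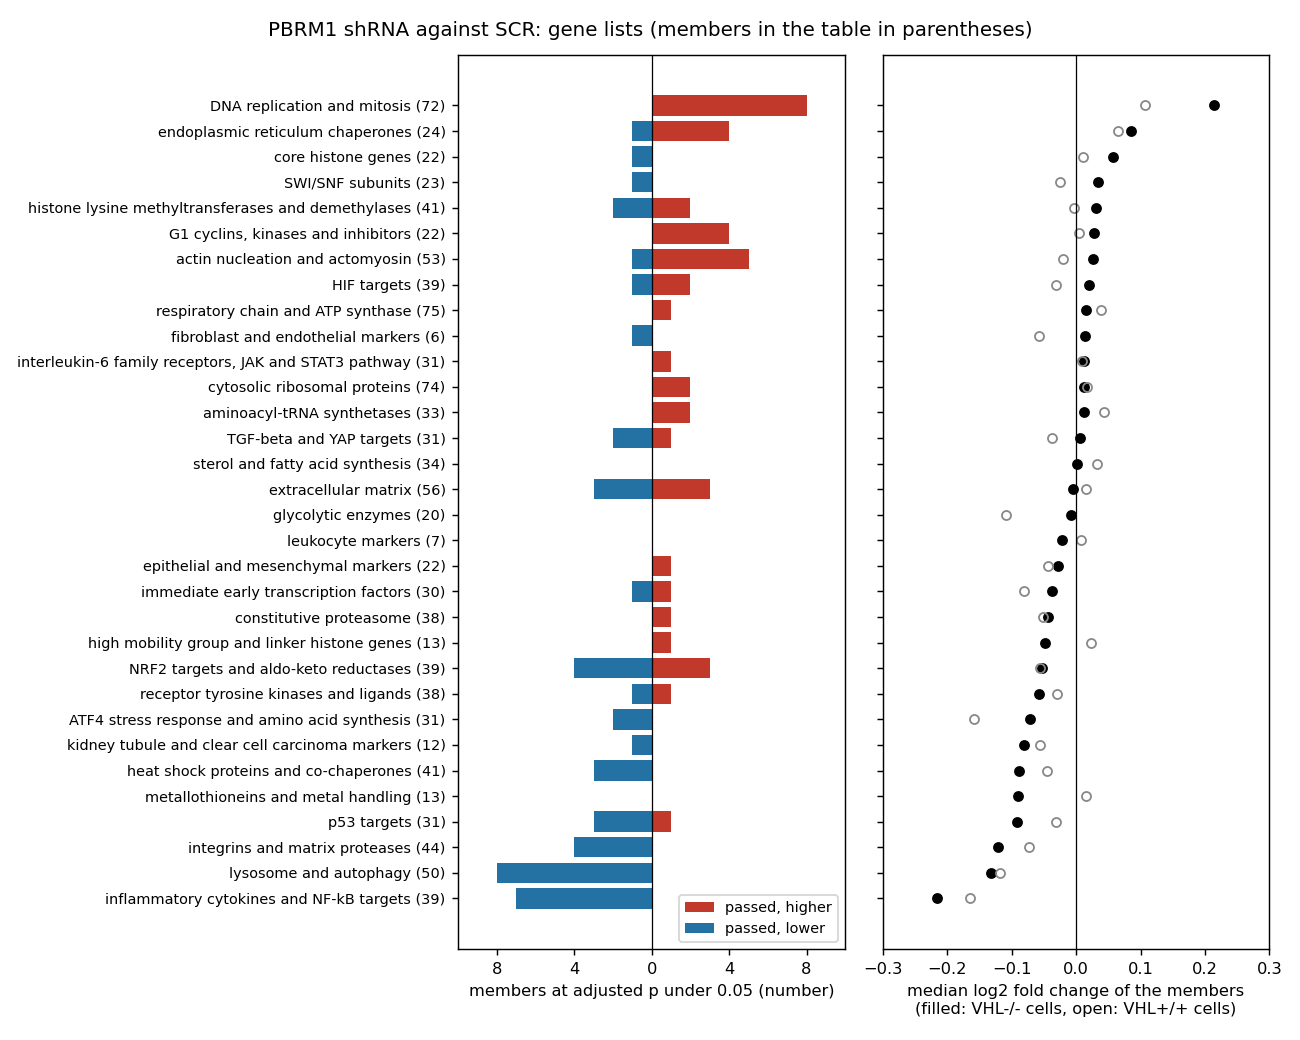
For each of 32 gene lists other than the interferon list, the number of members that passed at adjusted p under 0.05 in VHL-/- cells, higher in red and lower in blue (left), and the median log2 fold change of the members in VHL-/- cells (filled) and in VHL+/+ cells (open, right), with the number of members in the table in parentheses. The highest median in VHL-/- cells is that of DNA replication and mitosis (0.21, 8 higher and 0 lower), and the lowest is that of inflammatory cytokines and NF-kB targets (-0.22, 0 higher and 7 lower).

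**Figure D4:**
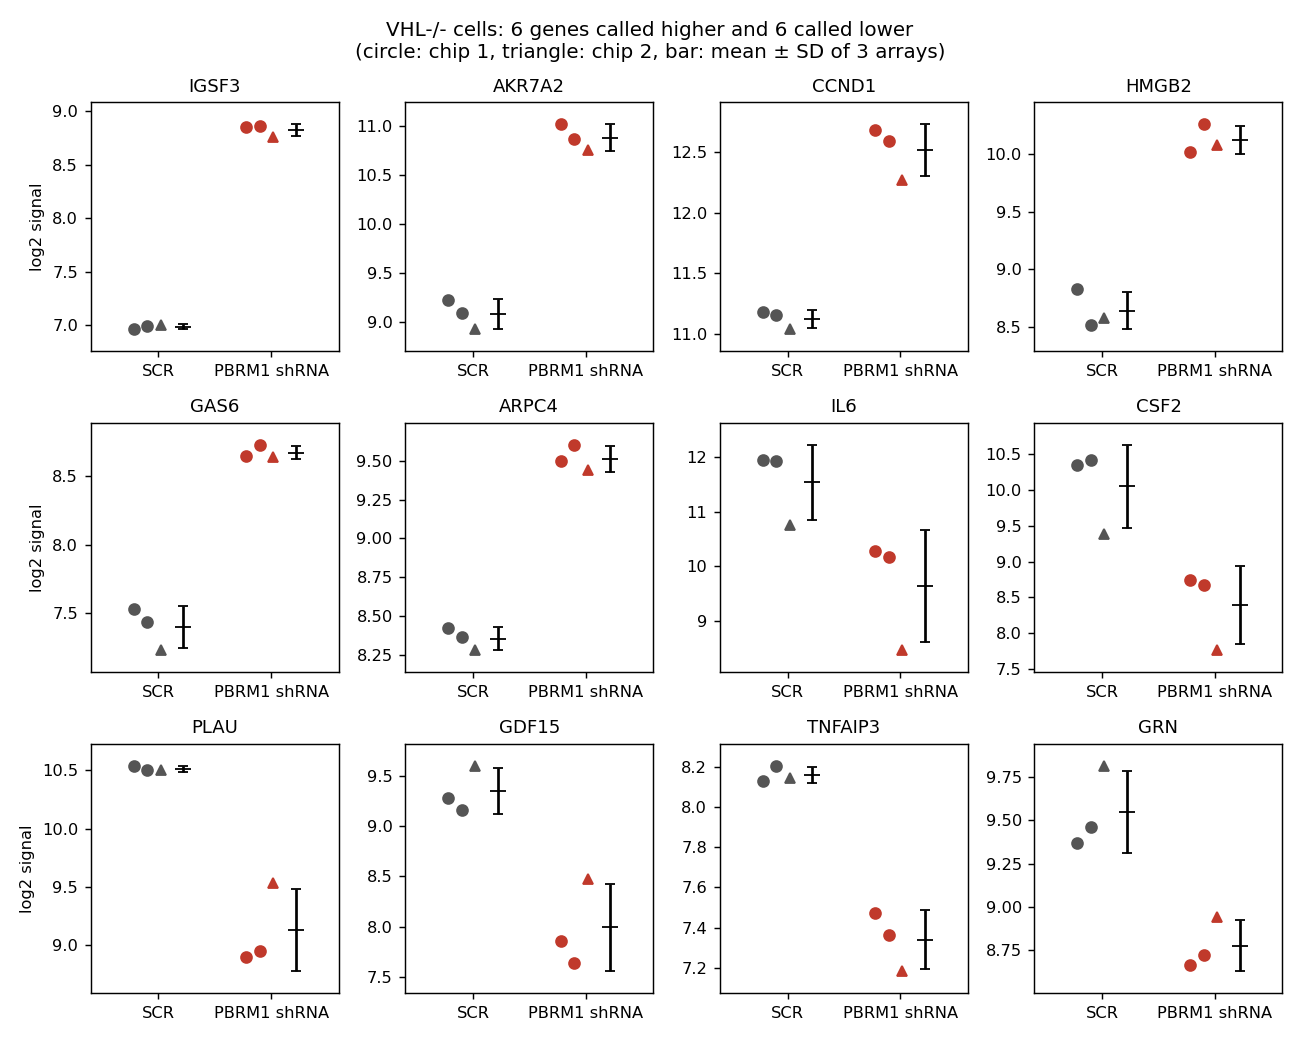
Log2 signal on each of the 6 VHL-/- arrays for 6 genes called higher and 6 called lower, with circles for chip 1, triangles for chip 2 and bars for the mean ± SD of 3 arrays. In the genes called higher the arrays of a group lie close together, with IGSF3 from 6.96 to 7.01 and from 8.76 to 8.86, while in IL6 and CSF2 the chip 2 array of either group lies lowest.

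The genes called in VHL-/- cells were then read in the arrays of VHL+/+ cells against their own SCR arrays. These arrays did not enter the fold changes that chose the genes, but they share the fit's estimate of spread and its chip term, and leaving out 1 array of the VHL+/+ groups lost at most 5 of the 238 calls. All 121 genes called higher had a log2 fold change above 0 there, where 51% of all genes did, and 81 of them passed higher (1.59% of all genes did). Their median was 0.61, against 0.72 in VHL-/- cells. Of the 68 genes called lower outside the interferon list 67 were below 0 (49% of all genes) and 23 passed lower (0.898% of all genes), with a median of -0.47 against -0.73. Over all genes 65.8% had the same direction in both backgrounds. The 49 interferon rows had medians of -0.40 and -0.92. Since the members were picked for large values in VHL-/- cells, smaller values elsewhere do not by themselves show a weaker effect. IGSF3 rose by 1.71, AKR7A2 by 1.64, CCND1 by 1.37, GAS6 by 1.11 and ARPC4 by 0.94 in VHL+/+ cells, beside 1.84, 1.81, 1.39, 1.28 and 1.16 in VHL-/- cells.

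The difference of the effect between the backgrounds was tested gene by gene, and 0 of 13141 genes passed by limma (lowest adjusted p = 0.903), with 553 at an unadjusted p under 0.05. Over the 238 called genes the 95% interval of this difference extended a median of 0.40 to either side on the log2 scale, and for 191 of them it stayed within 1 of 0. PDZK1IP1, a membrane protein of the proximal tubule brush border, had -0.86 in VHL-/- and 0.22 in VHL+/+ cells, and HTRA1, a secreted serine protease, 0.71 and 0.00. CSF2 had -1.65 and -0.33. Without VHL-/- SCR replicate 3, the SCR array of chip 2, 12 genes passed, of which 11 were interferon genes that fell more in VHL-/- cells, and ZNF394 was the other. The median of the interferon list was -0.55 within chip 1 and -0.32 on chip 2.

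**Figure D5:**
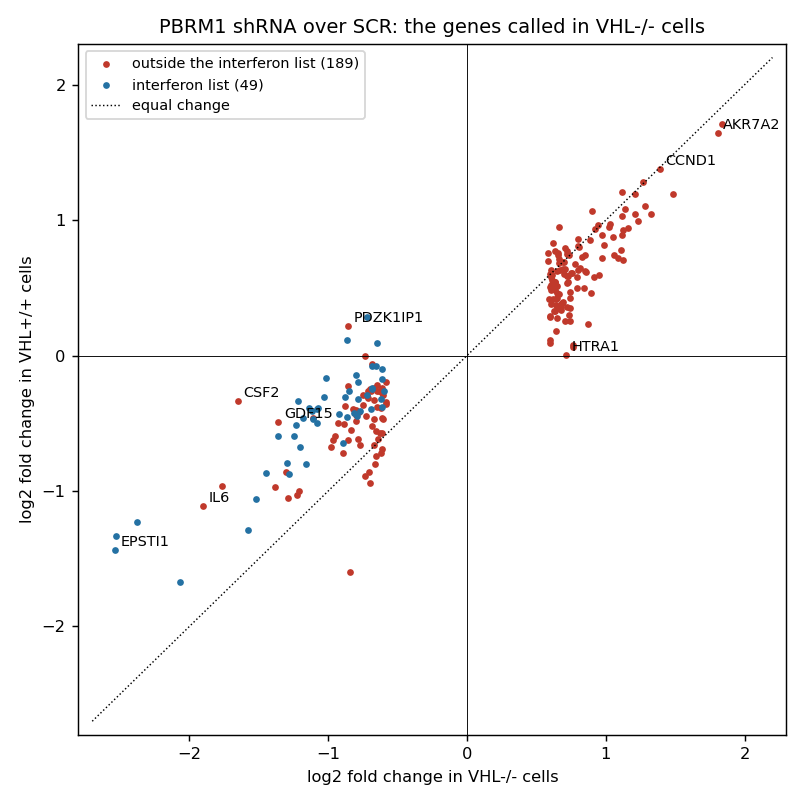
Log2 fold change of PBRM1 shRNA over SCR in VHL-/- cells (horizontal axis) and in VHL+/+ cells (vertical axis) for the 238 genes called in VHL-/- cells, with 189 outside the interferon list in red, 49 of that list in blue and a dotted line of equal change. All 121 genes called higher lie above 0 on both axes, and PDZK1IP1 is the 1 gene called lower outside the list that lies above 0 in VHL+/+ cells (0.22).

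KDM5C shRNA, against a histone H3K4 demethylase, was set against the same 3 SCR arrays in VHL-/- cells, so its values are given side by side and not as separate support. The medians with KDM5C shRNA were 0.66 for the 121 genes called higher with PBRM1 shRNA and -0.63 for the 68 called lower outside the interferon list. IGSF3 had 1.84 with PBRM1 shRNA and 1.85 with KDM5C shRNA, AKR7A2 1.81 and 1.82, and CCND1 1.39 and 1.34, whereas CSF2 had -1.65 and -0.28. The direct test between both shRNA groups found 0 genes at adjusted p under 0.05 (lowest 0.813) and 707 at an unadjusted p under 0.05, and over the 238 genes the 95% interval of the difference extended a median of 0.28 to either side, within 1 of 0 for 231. In VHL+/+ cells, whose arrays share none with the VHL-/- groups, the medians with KDM5C shRNA were 0.59 for the 121 higher genes and -0.43 for the 68 lower genes. Of the former 83 passed higher and of the latter 23 passed lower (2.39% and 1.8% of all genes did). The SCR construct was the same in both backgrounds, and the spread came from the same fit. As each shRNA group is set against the SCR group of its own background and PBRM1 mRNA did not fall, an effect of the PBRM1 hairpin on PBRM1 and a property of the SCR cells cannot be told apart from these arrays.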

How the data were processed

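Total RNA of 786-O cells was hybridised to 18 Illumina HumanHT-12 V4 arrays. The deposited values are log2 intensities per gene: the authors preprocessed the scans in GenomeStudio, corrected the background to positive values, took log2, quantile-normalised the arrays, filtered probes on presence (detection threshold 0.05) and took the mean over each gene's probes. Whether these values also carry a batch correction is not given in the sources used here. The precision is set by the number of arrays, since arrays have no read depth.

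Groups came from the titles. limma 3.58.1 in R 4.3.3 was fitted to all 18 arrays with 6 group terms and a chip term (11 residual degrees of freedom), empirical Bayes moderation and Benjamini-Hochberg adjustment over 13141 genes. Contrasts were PBRM1 shRNA against SCR in each background, their difference, and PBRM1 shRNA against KDM5C shRNA in VHL-/- cells. The fit was tested on simulated data. The called threshold (adjusted p under 0.05, fold change at least 1.5) and 33 lists were fixed with earlier results of these data known, as were the members. Symbols were matched to RefSeq: 10777 are current, 1880 are synonyms of 1 gene, 93 of several and 391 matched none.

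Named genes were PBRM1, VHL, EPAS1, 3 PBAF subunits and 7 of the genes the study measured by RT-PCR, the 20 largest rises and falls outside the interferon list among called genes with arrays apart, the 5 largest interferon falls, up to 4 members per list with the smallest adjusted p among those that passed (the 2 smallest if none passed), and the 5 smallest adjusted p of each difference. Other genes are named from the lists after their values were seen. Some results under this rule are not reported here. The alternatives tried were a fit without the chip, a replicate block, the contrast's arrays alone, the dimmest 25% left out, median centring, cyclic loess, trend with robust moderation, fold thresholds of 2 or none, and each array left out.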

Additional observations from a re-analysis of the deposited data

How the results depend on the processing

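The 238 calls moved most with the fold threshold: at least 2-fold gave 57 (23 higher, 34 lower) and no fold threshold 714 (366 higher, 348 lower). Without the chip term the genes called lower fell to 76, and those outside the interferon list to 37, while 93 stayed higher. With 1 array left out, the calls ranged from 195 (without VHL-/- SCR replicate 2) to 340 (without VHL-/- PBRM1 shRNA replicate 3), those higher from 101 to 179 and those lower outside the interferon list from 51 to 110. The difference between the backgrounds gave 0 to 12 genes and that between the shRNAs 0 to 1 (TM4SF18 without PBRM1 shRNA replicate 3, LTB without KDM5C shRNA replicate 3). The PBRM1 difference ranged from -0.20 to 0.00104. It was above 0 only without PBRM1 shRNA replicate 1. Of the named genes, BRD7 turned sign in 3 of these fits (-0.07121 to 0.03494), PHF10 in 1 (-0.05253 to 0.09347) and ENC1 in 2 (-0.03706 to 0.06235). Same-numbered arrays were not paired by the labels. Deviations from the group means correlated at 0.098, 0.201 and 0.349 for numbers 1, 2 and 3. PBRM1 shRNA replicate 1 correlated best with SCR replicate 2. The chip effect was left in these deviations, so the values cannot separate pairing by number from a shared chip. With the replicate block in place of the chip 233 genes were called, all among the 238. Of 72 named genes that were called, 44 were called in all 25 alternatives. The cause of these changes was not tested. Array number limits what could be detected, and low signals near the background were tested with the rest.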
